A study of Homo sapiens with 10 samples.

Results

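The ID family comprises 4 human genes, ID1, ID2, ID3 and ID4, which encode inhibitors of DNA binding. All probe sets that the platform annotation assigns to these symbols alone were taken, which gave 9 of the 54675 probe sets on the array, covering 4 of 19775 named genes. ID1 and ID3 each had 1 probe set, ID2 had 2 and ID4 had 5. Each account leads with the probe set of the gene that was brightest on average (mean log2 over the 10 arrays). A further probe set that the annotation shares between ID2 and ID2B was not counted as a member.

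ID proteins are helix-loop-helix proteins that lack the basic region needed to touch DNA. They pair with the widely expressed E proteins (TCF3, TCF4 and TCF12) and keep them, and their tissue-specific partners, off E-box sequences, which tends to hold cells in a proliferating, undifferentiated state. Transcription of the ID genes is a classical output of bone morphogenetic protein (BMP) signalling through SMAD1, SMAD5 and SMAD4, and the proteins are short-lived, being ubiquitinated by the anaphase-promoting complex and spared by the deubiquitinase USP1. In lung carcinoma cells ID1 has been described as inducible by nicotine and by growth factors.

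The series asked which genes lie downstream of ID1 in non-small cell lung carcinoma. It used 2 established lines, A549 and H1650, the latter labelled as carrying mutant EGFR. In each line 5 arrays were hybridised, 1 per condition, so that control siRNA was used without stimulus, and control and ID1 siRNA were each used under nicotine and under EGF. Cells of every group had been grown with serum for 24 h and then deprived of it for 48 h. Nicotine was used at 1 uM and EGF at 100 ng per ml, for 18 h. No group had ID1 siRNA without a stimulus. The sequence of the siRNA and the parts of ID1 it targets are not given in the sources used here. Nothing in the labels names separate cultures, so the spread measured below may hold no variation between independent cultures. Signals are MAS5 intensities on a linear scale, scaled to the same trimmed mean of 500 on every array, and the array medians ran from 61.2 to 79.6.

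The arrays carried the signals of epithelial lines. KRT8 ranged from 15250 to 31710 and KRT18 from 23050 to 47580, while the leukocyte gene PTPRC stayed between 5.24 and 37.62 and the fibroblast receptor gene PDGFRB between 4.69 and 46.14. EPCAM and CDH1 were lower in A549, at 734.3 to 1520 and 1122 to 2210, than in H1650, at 12200 to 14050 and 16810 to 19320. With 1 array per group there is no replicate of any condition. Tests were therefore made with limma, whose spread came from how far effects differed between lines or between the nicotine and EGF pairs, and a gene was called at a Benjamini-Hochberg adjusted p under 0.05 over 12514 genes. Genes entered with a mean log2 signal of at least 6.06, a signal of 66.7. All 4 leading probe sets passed, as did 201566_x_at of ID2 and 209293_x_at of ID4. The remaining 3 ID4 probe sets did not pass and were given no test. Of the markers of other cell types, 1 of 4 leukocyte, 1 of 3 endothelial and 2 of 4 fibroblast genes passed. PTPRC and PDGFRB were not among them, and the levels of those that passed are not listed here. All 5 epithelial markers passed. Between lines, 2 of these 5 were called higher and 3 lower in A549 (median log2 -2.05), beside 30.9% and 32.2% of all genes.

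1 array is described separately for its ID signals. The A549 array labelled control siRNA without stimulus lay, for all 4 leading probe sets, between the A549 stimulated control arrays and the A549 ID1 siRNA arrays. Its ID1 signal of 1645 was nearer to the ID1 siRNA arrays, both at 1343, than to the stimulated control arrays at 3049 and 3720. It is the only unstimulated A549 array, so its position cannot be told apart from an effect of nicotine and EGF. How many of all genes lay between in the same way was not counted. The main limma estimates of the leading probe sets that use this array are given below with and without it. The comparisons of ID1 siRNA with control siRNA do not use it.

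The start-proximal promoters of the 4 genes are shown because the genes are known as BMP targets in common, and the values below compare how they moved in the same cells. Each is the 250 bases that precede the annotated start, 5' to 3' on the strand of the gene, from RefSeq on GRCh38.p14. They lie at chr20:31605039-31605288 (plus strand) for ID1, chr2:8681806-8682055 (plus strand) for ID2, chr1:23559502-23559751 (minus strand) for ID3 and chr6:19837120-19837369 (plus strand) for ID4. Capitals mark every E box of the form CANNTG and every TATAAA, searched on both strands.
ID1: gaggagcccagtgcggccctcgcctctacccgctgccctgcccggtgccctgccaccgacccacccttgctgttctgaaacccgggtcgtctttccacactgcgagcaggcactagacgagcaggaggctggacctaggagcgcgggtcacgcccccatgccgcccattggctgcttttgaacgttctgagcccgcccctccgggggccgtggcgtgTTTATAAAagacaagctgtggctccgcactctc
ID2: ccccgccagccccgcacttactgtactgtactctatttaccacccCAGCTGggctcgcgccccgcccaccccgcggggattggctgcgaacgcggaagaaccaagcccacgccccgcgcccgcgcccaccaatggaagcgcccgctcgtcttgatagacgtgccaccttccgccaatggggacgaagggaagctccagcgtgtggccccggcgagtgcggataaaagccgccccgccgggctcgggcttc
ID3: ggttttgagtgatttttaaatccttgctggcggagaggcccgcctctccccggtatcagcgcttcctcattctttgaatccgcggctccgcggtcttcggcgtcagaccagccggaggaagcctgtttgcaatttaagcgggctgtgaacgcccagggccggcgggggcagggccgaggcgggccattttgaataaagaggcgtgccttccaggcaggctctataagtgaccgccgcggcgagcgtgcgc
ID4: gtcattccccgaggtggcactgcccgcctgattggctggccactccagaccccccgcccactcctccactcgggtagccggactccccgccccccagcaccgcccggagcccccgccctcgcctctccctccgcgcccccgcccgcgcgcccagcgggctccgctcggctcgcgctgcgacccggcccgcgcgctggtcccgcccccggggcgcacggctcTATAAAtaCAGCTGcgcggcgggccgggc

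The promoters differed in these motifs. ID1 had TATAAA at 33 and 31 bases before the start, which overlap as read on the opposite strands, and no E box. ID2 had no TATAAA and 1 E box, CAGCTG, at 205 bases before the start. ID4 had TATAAA at 29 bases and CAGCTG at 21 bases before the start, and ID3 had neither motif. GC content was 66% for ID1, 69.2% for ID2, 62% for ID3 and 78.8% for ID4. Among 35116 RefSeq promoters of the same length, 61.8% held CANNTG, 14% held CAGCTG and 10.7% held TATAAA. The letters GGCGCC, found in 16.4% of those promoters, and the cyclic AMP response element TGACGTCA, found in 1.65%, occurred in none of the 4 windows. These matches describe the letters of the windows only.

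ID1, the gene targeted by the siRNA, was lower on every array that carried the siRNA than on its matched control. In A549 with nicotine its signal was 3720 with control siRNA and 1343 with ID1 siRNA, and with EGF it was 3049 and 1343. In H1650 with nicotine the signals were 4964 and 881, and with EGF they were 5121 and 1031. Control and ID1 siRNA arrays did not overlap in either line. Separations of this kind, here and below, were not counted over all genes. The single pairs were 63.9% and 56% lower in A549, for nicotine and EGF, and 82.3% and 79.9% lower in H1650. The limma estimate was -1.33 ± 0.11 (log2, SE, 2 pairs; adjusted p = 0.000105) in A549 and -2.40 ± 0.11 (2 pairs; adjusted p = 8.66e-05) in H1650.

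The reduction of ID1 was smaller in A549 than in H1650, by 1.08 ± 0.16 on the log2 scale (limma interaction, adjusted p = 0.00372). After ID1 siRNA the residual signal was nevertheless close in both lines, A549 exceeding H1650 1.52-fold with nicotine and 1.3-fold with EGF. Among all genes tested the same fit called 25.3% in A549 and 12.3% in H1650, and the interaction called 11.9%. At 881 and 1031, the lowest ID1 signals of the series were still far above the signal filter of 66.7.

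**Figure D1:**
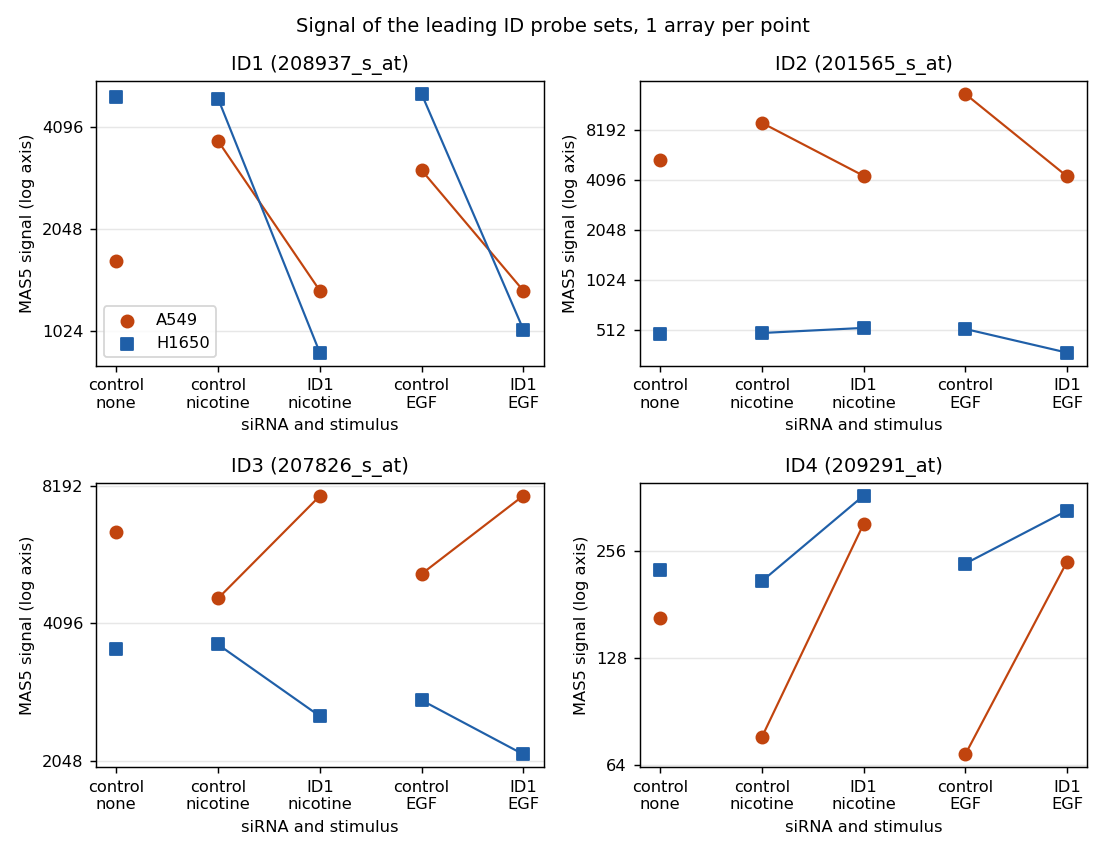
MAS5 signal (log axis) of the leading probe set of each ID gene on the 10 arrays, by siRNA and stimulus, with A549 as circles and H1650 as squares; lines join the control siRNA and ID1 siRNA arrays of a pair. ID1 fell in all 4 pairs, ID2 was brighter in A549 in every condition, ID3 moved in opposite directions in the 2 lines, and ID4 was dimmest on the stimulated A549 control arrays.

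ID2, a helix-loop-helix inhibitor known also for binding the retinoblastoma protein, fell with ID1 in A549. Its leading probe set, 201565_s_at, read 9087 with control siRNA and nicotine and 4356 with ID1 siRNA and nicotine. The EGF pair read 13550 and 4321. Both ID1 siRNA arrays were below both stimulated controls, by 52.1% and 68.1%, and they also lay below the unstimulated array at 5446. The estimate was -1.36 ± 0.17 (log2, SE, 2 pairs; limma adjusted p = 0.000936).

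In H1650 the same probe set stayed between 374.8 and 528.2. It read 487.3 without stimulus, 492.2 and 528.2 for control and ID1 siRNA with nicotine, and 520.4 and 374.8 with EGF. The pairs went in opposite directions, 0.10 and -0.47 on the log2 scale, and the estimate of -0.19 ± 0.17 did not pass (limma adjusted p = 0.545). The difference between lines was -1.17 ± 0.24 (adjusted p = 0.017); without the A549 control EGF array it was -0.88 (adjusted p = 0.0703), and without the A549 ID1 siRNA EGF array also -0.88 (adjusted p = 0.0642).

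The second ID2 probe set, 201566_x_at, showed the same division. In A549 it fell from 3204 to 1644 with nicotine and from 2958 to 1661 with EGF, an estimate of -0.90 ± 0.15 (limma over 23145 probe sets, adjusted p = 0.00418). In H1650 it read 88.39 and 94.94 with nicotine and 81.79 and 87.98 with EGF, and the estimate of 0.10 ± 0.15 did not pass (adjusted p = 0.732). The difference between lines was -1.002 ± 0.209 (adjusted p = 0.0227). Over all probe sets the fit called 21.2% in A549, 10.2% in H1650 and 8.57% for the difference. Across the 10 arrays, centred within line, the 2 ID2 probe sets correlated at r = 0.758, a description over arrays that share lines and conditions.

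ID3, like ID1 an early target of BMP signalling, was the member whose change passed the test in opposite directions in the 2 lines. In A549 it read 4646 and 7789 for control and ID1 siRNA with nicotine, and 5256 and 7800 with EGF. In H1650 it read 3682 and 2565 with nicotine, and 2779 and 2115 with EGF. ID3 was thus higher with ID1 siRNA in both A549 pairs, 1.68-fold and 1.48-fold, and lower in both H1650 pairs, by 30.3% and 23.9%. Control and ID1 siRNA signals did not overlap within either line, a separation not counted over all genes.

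The estimate for ID3 was 0.66 ± 0.10 in A549 (log2, SE, 2 pairs; limma adjusted p = 0.00235) and -0.46 ± 0.10 in H1650 (2 pairs; adjusted p = 0.0216). The difference of 1.12 ± 0.14 passed the test (adjusted p = 0.00209). The H1650 value rested on both pairs: without either nicotine array it was -0.39 (adjusted p = 0.2 without the control, 0.208 without the ID1 siRNA array), without either EGF array it was -0.52 (adjusted p = 0.0723 and 0.0772), and with pairs ignored its adjusted p was 0.0957.

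ID4, a family member studied in neural and mammary cells and known to be silenced by promoter methylation in several cancers, rose after ID1 siRNA in A549. Probe set 209291_at read 76.59 and 304.5 for control and ID1 siRNA with nicotine, and 68.6 and 238.9 with EGF. The ratios were 3.98-fold and 3.48-fold, and the estimate was 1.90 ± 0.24 (log2, SE, 2 pairs; limma adjusted p = 0.00102). Both control signals were close to the medians of their own arrays, 65.2 and 61.2, and to the filter at 66.7, so the size of the ratio depends on a dim measurement. The unstimulated A549 array read 165.5.

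In H1650 the signals of 209291_at were 225.9 without stimulus, 210.3 and 366 with nicotine, and 235.7 and 332.2 with EGF. Both ID1 siRNA arrays exceeded all 3 controls, but the estimate of 0.65 ± 0.24 did not pass (limma adjusted p = 0.121). The difference between lines was 1.25 ± 0.34 (adjusted p = 0.0479). It passed in 2 of the 15 alternatives, and it did not pass when any of the 8 stimulated arrays was left out, with values from 1.096 to 1.401.

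The second tested ID4 probe set, 209293_x_at, was also higher with ID1 siRNA than on the matched stimulated controls in A549. It read 80.27 and 158.9 for control and ID1 siRNA with nicotine in A549 and 69.77 and 186.6 with EGF. The estimate was 1.202 ± 0.259 (limma over all probe sets, adjusted p = 0.0133). On the unstimulated A549 control array it read 160.3, not below the 158.9 with ID1 siRNA and nicotine. In H1650 it read 194.8 and 209.5, and 238 and 239.8, for an estimate of 0.06 ± 0.26 (adjusted p = 0.924). The difference between lines, 1.15 ± 0.37, did not pass (adjusted p = 0.0943).

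The 3 ID4 probe sets under the filter are given as levels only. Probe set 226933_s_at read 7.57 and 73.38 with nicotine and 4.44 and 64.06 with EGF for control and ID1 siRNA in A549, and 31.01 to 74.91 on the H1650 arrays. Probe set 209292_at ran from 1.19 to 39.28, and 229386_at from 10.18 to 42.2. The first and second of these followed the leading probe set within lines, at r = 0.924 and r = 0.838 over the 10 arrays, and the third did not, at r = -0.196. Signals this low carry no reliable ratio.

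**Figure D2:**
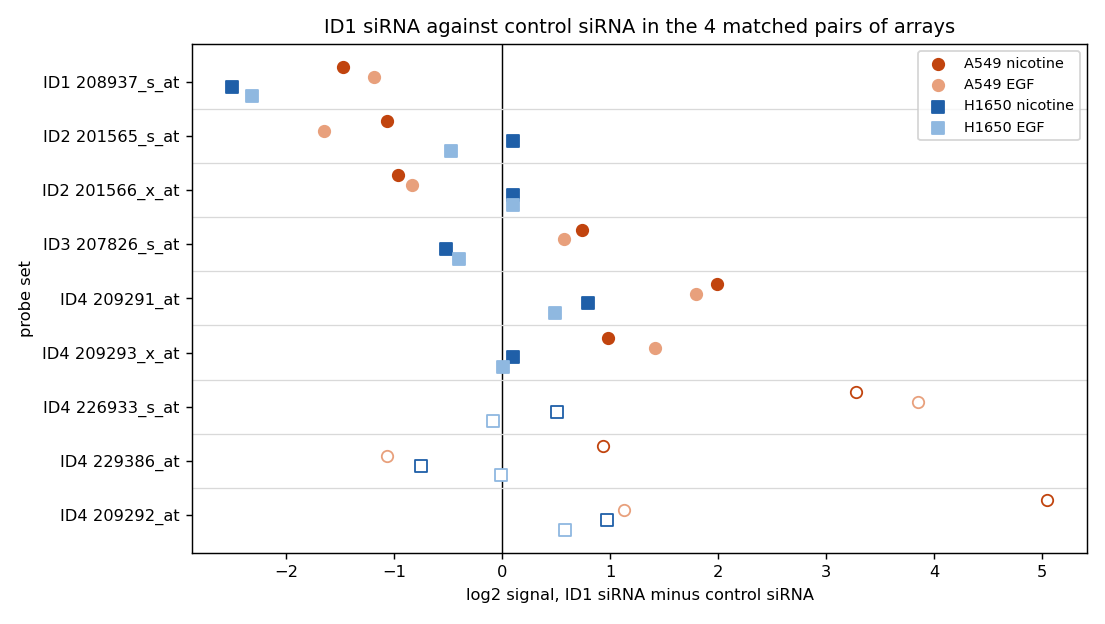
Difference in log2 signal between the ID1 siRNA and control siRNA array of each of the 4 pairs, for all 9 probe sets; circles are A549, squares H1650, dark nicotine and light EGF, and open symbols are probe sets under the signal filter. In A549 both pairs of ID1 and ID2 lie below 0 and both pairs of ID3 and of the ID4 probe sets tested lie above it.

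In A549 all 4 members passed the test, ID3 and ID4 among the 13.8% of genes called higher and ID1 and ID2 among the 11.4% called lower. In H1650 ID1 and ID3 passed, both among the 6.66% called lower, and no member was among the 5.64% called higher. Beside these values, the median log2 signal of the array itself was 0.29 higher with ID1 siRNA than with control siRNA in A549 and 0.05 higher in H1650. Centring every array on its median kept all 4 signs in A549, with ID1 at -1.61, ID2 at -1.64, ID3 at 0.37 (limma adjusted p = 0.0218) and ID4 at 1.61. Without the intensity trend in the variance model, ID1 and ID3 did not pass in H1650 (adjusted p = 0.0614 and 0.128), nor did any of the 4 differences between lines (0.0643 to 0.136). Some markers moved with the siRNA as well. In A549 2 of 5 epithelial markers were called higher, KRT19 at 0.60 and CDH1 at 0.47. Of 4 fibroblast markers 2 were tested there, with a median of 0.50, and 1 was called higher, COL1A1 at 1.14. LUM, at 25.07 to 36.8, and PDGFRB, at 7.28 to 46.14, stayed dim in A549. The part of the array shift and of these genes in the results was not tested.

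**Figure D3:**
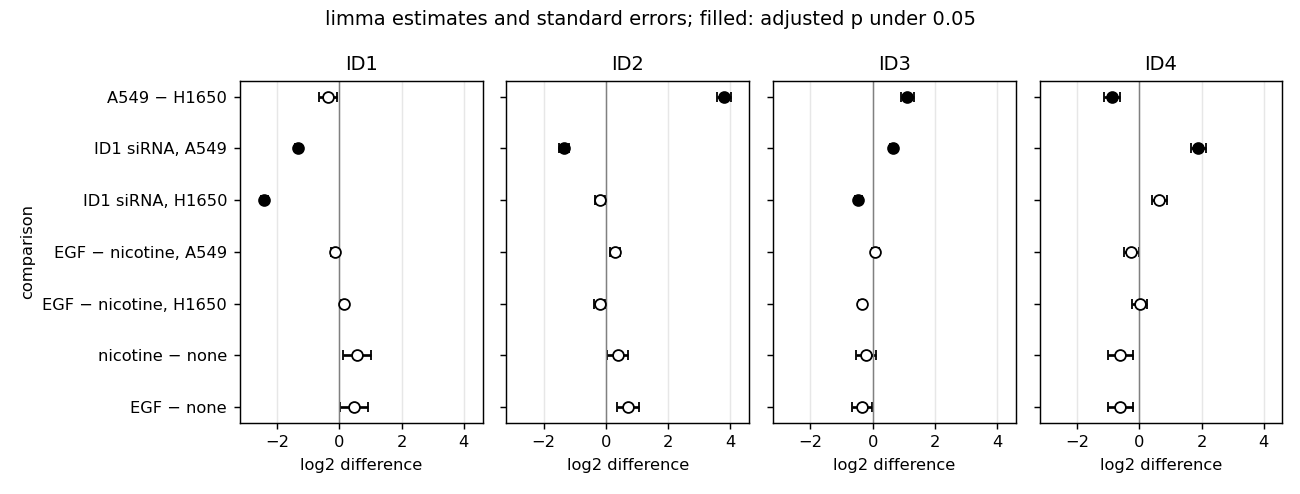
limma estimates (log2 difference) with standard errors for the 4 members in 7 comparisons; filled points have an adjusted p under 0.05. The filled points are the line difference for ID2, ID3 and ID4, ID1 siRNA in A549 for all 4, and ID1 siRNA in H1650 for ID1 and ID3.

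The lines differed most in ID2. Its leading probe set was brighter in A549 in all 5 matched conditions, from 8.25-fold with ID1 siRNA and nicotine to 26-fold with control siRNA and EGF. The estimate was 3.79 ± 0.22 (log2, SE, 5 arrays per line; limma adjusted p = 1.77e-06), or 13.9-fold, and 201566_x_at gave 4.49 ± 0.23 (adjusted p = 7.04e-07). Without the A549 unstimulated array the estimate of the leading probe set was 3.87 (adjusted p = 2.7e-05). The line comparison called 63.1% of all genes and 61.3% of all probe sets, so a call there is the common outcome.

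ID3 was also higher in A549 in all 5 conditions. Its ranges did not overlap, 4646 to 7800 against 2115 to 3682, a separation not counted over all genes. The estimate was 1.12 ± 0.21 (limma adjusted p = 0.00145), or 2.17-fold, and 1.19 without the A549 unstimulated array (adjusted p = 0.00488). On the 6 control siRNA arrays alone it was 0.70 (adjusted p = 0.00425). The gap was narrowest between the control arrays with nicotine, 1.26-fold, and widest between the ID1 siRNA arrays with EGF, 3.69-fold.

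ID4 was lower in A549 in all 5 conditions, from 1.2-fold between the ID1 siRNA arrays with nicotine to 3.44-fold between the control arrays with EGF. The estimate was -0.89 ± 0.25 (limma adjusted p = 0.0145); without the H1650 control nicotine array it was -0.74 (adjusted p = 0.0518), and without the A549 unstimulated array -0.995 (adjusted p = 0.0224). On the control siRNA arrays without the latter it was -1.62 (adjusted p = 0.000734), a value chosen after the data were seen that rests on 2 pairs. The 3 control pairs differed by -0.45 without stimulus, -1.46 with nicotine and -1.78 with EGF. The second probe set, 209293_x_at, gave -0.82 ± 0.25 (adjusted p = 0.0202). The ranges overlapped, 68.6 to 304.5 in A549 against 210.3 to 366 in H1650.

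ID1 changed order between the lines with the siRNA. On control arrays A549 was lower than H1650, by 67.3% without stimulus, 25.1% with nicotine and 40.5% with EGF, and on the ID1 siRNA arrays it was higher. Over all arrays the estimate of -0.36 ± 0.29 did not pass (limma adjusted p = 0.303). Without the A549 unstimulated array it was -0.04 (adjusted p = 0.882). On the 6 control siRNA arrays alone it was -0.93 ± 0.21 (adjusted p = 0.00707), the unstimulated pair being the widest of the 3, at -1.61 against -0.42 with nicotine and -0.75 with EGF. Without the A549 unstimulated array the control arrays gave -0.58 ± 0.16 (adjusted p = 0.00395), a value chosen after the data were seen that rests on 2 pairs.

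The members differed between single stimulated and unstimulated A549 control arrays, but with both lines in the fit neither nicotine nor EGF gave a call. Against the unstimulated A549 control, ID1 was 2.26-fold higher with nicotine and 1.85-fold higher with EGF, and ID2 was 1.67-fold and 2.49-fold higher. ID3 was 28.4% and 19% lower and ID4 53.7% and 58.5% lower. The second probe sets went the same way. With nicotine and EGF, 201566_x_at of ID2 was 1.72-fold and 1.59-fold higher, and 209293_x_at of ID4 was 49.9% and 56.5% lower. All of these ratios rest on the single A549 unstimulated array described above.

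In H1650 the same ratios of the leading probe sets were near 1. The log2 differences for nicotine and EGF were -0.02 and 0.03 for ID1, 0.01 and 0.10 for ID2, 0.04 and -0.37 for ID3, and -0.10 and 0.06 for ID4. The widest of these was the 22.6% lower ID3 signal with EGF. Probe set 201566_x_at of ID2 fell further in H1650, from 141.6 without stimulus to 88.39 with nicotine and 81.79 with EGF. These dim signals were 37.6% and 42.2% lower. For 209293_x_at of ID4 the log2 differences in H1650 were 0.02 and 0.305.

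With both lines in the fit, the nicotine estimates were 0.58 ± 0.45 for ID1, 0.38 ± 0.34 for ID2, -0.22 ± 0.33 for ID3 and -0.61 ± 0.40 for ID4 (log2, SE, 2 lines; limma adjusted p = 1 for each). The EGF estimates were 0.46 ± 0.45, 0.71 ± 0.34, -0.34 ± 0.33 and -0.60 ± 0.40, with adjusted p from 0.842 to 0.879. limma called 0 genes, 0%, for nicotine and 0%, again 0 genes, for EGF; at an unadjusted p under 0.05 there were 189 and 747. For 201566_x_at of ID2 the nicotine and EGF estimates were 0.053 ± 0.355 and -0.061 ± 0.355, and neither passed. Both stimulus comparisons share the same unstimulated arrays, so their estimates are not independent. Without the A549 unstimulated array the nicotine and EGF estimates were -0.21 and -0.33 for ID1, 0.18 and 0.51 for ID2, -0.39 and -0.50 for ID3, and -0.33 and -0.33 for ID4 (limma adjusted p = 1 for each).

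EGF and nicotine could be compared directly on the stimulated arrays. In A549 ID1 read 3049 with EGF against 3720 with nicotine under control siRNA, and 1343 with either under ID1 siRNA. The leading ID2 probe set read 13550 against 9087 and 4321 against 4356. The second, 201566_x_at, had the reverse order, 2958 against 3204 and 1661 against 1644. The estimates for ID1 to ID4 were -0.14, 0.28, 0.09 and -0.26 in A549 and 0.14, -0.21, -0.34 and 0.01 in H1650, with limma adjusted p from 0.265 to 0.994. The lowest p belonged to ID3 in H1650, which was lower with EGF under both siRNAs. Differences between lines ran from -0.28 for ID1 to 0.49 for ID2 and did not pass either (adjusted p from 0.484 to 0.865). Few genes of any kind passed: 0.032% in A549, 0.216% in H1650 and 0.0799% for the difference.

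The ID partners and the BMP and ID pathway were followed in 9 lists. Of their 66 tested genes, 24 were called with ID1 siRNA in A549, 36.4% against 25.3% of all genes, and 5 in H1650, 7.58% against 12.3%. The lists were chosen with earlier results of these data known, so these shares are descriptions and cannot show a response of the pathway. By direction, all genes were called higher in 13.8% and lower in 11.4% in A549, and 5.64% and 6.66% in H1650, which is the background of each list count below. After array-median centring 16 of the 24 A549 calls were kept, and 16 under quantile normalization. Without either A549 EGF array 13 were kept, and without either A549 nicotine array 16. Without the intensity trend 9 of the 24 were kept in A549 and 0 of the 5 in H1650, and with the mean of all probe sets of a gene 9 of 23 and 0 of 5. BMP2, NOG, RUNX2, ETS1, MYC and CDKN1A kept their A549 call and sign in every alternative that gave them a value. Median changes are read below beside the median over all genes tested, 0.05 in A549 and -0.01 in H1650.

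Among ID-binding proteins, 13 of 14 were tested; 5 were called higher and 1 lower in A549 (median 0.19), and 3 higher and 1 lower in H1650 (median 0.003), beside 13.8% and 11.4% of all genes in A549 and 5.64% and 6.66% in H1650. After array-median centring the A549 counts turned to 1 higher and 4 lower (median -0.10), and under quantile normalization they were 2 and 1. TCF3, the E protein also known as E2A, read 915.9 and 1146 for control and ID1 siRNA with nicotine and 849 and 1310 with EGF in A549, and 593 and 913.2, then 602.5 and 914, in H1650. It was higher with ID1 siRNA in all 4 pairs, by 0.48 ± 0.13 in A549 (limma adjusted p = 0.0255) and 0.61 ± 0.13 in H1650 (adjusted p = 0.0162). The A549 call was lost with array-median centring, quantile normalization and without either A549 EGF array; the H1650 call was lost without the ID1 siRNA nicotine array.

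The other 2 E proteins did not pass. TCF4 gave 0.34 ± 0.19 in A549 (limma adjusted p = 0.21) and 0.04 in H1650 (adjusted p = 0.922). TCF12 gave -0.20 ± 0.10 (adjusted p = 0.155) and -0.22 (adjusted p = 0.174). All 3 E proteins were higher in A549 than in H1650, TCF4 by 2.88, TCF12 by 1.51 and TCF3 by 0.56 on the log2 scale (limma adjusted p of 0.00158 or less). The line comparison called 63.1% of all genes, with 30.9% of all genes called higher in A549, so such a call is common.

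ETS-domain factors are also known to bind ID proteins. ETS1 rose in A549 from 1852 to 3960 with nicotine and from 2110 to 4751 with EGF, by 1.13 ± 0.10 (limma adjusted p = 0.000128), and gave -0.12 in H1650. ETS2 gave 0.63 in A549 (adjusted p = 0.013) and 0.58 in H1650 (adjusted p = 0.0313); the A549 call was lost with centring, with quantile normalization and without any of the 4 A549 stimulated arrays, and the H1650 call without either nicotine array. SREBF1, a regulator of lipid synthesis that ID proteins can bind, fell in A549 by 0.69 ± 0.11 (adjusted p = 0.00336), and in H1650 it gave -0.44 (adjusted p = 0.0393), a call lost without either H1650 EGF array. RBL1, a pocket protein of the retinoblastoma family, was called higher in H1650 by 0.68 ± 0.15 (adjusted p = 0.0224) and lost that call without either nicotine array.

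Of the BMP ligands, 5 of 12 were tested; 2 were called higher in A549, beside 13.8% of all genes (median 0.59), and 0 in H1650 (median -0.06), where 0 had an unadjusted limma p under 0.05. BMP2 read 110.9 and 352.4 for control and ID1 siRNA with nicotine and 57.58 and 342.8 with EGF in A549, a rise of 2.12 ± 0.23 (limma adjusted p = 0.000449) from a control EGF signal under the filter. In H1650 it stayed between 748.2 and 814 on all 5 arrays and gave 0.02. BMP5 gave 1.36 ± 0.36 in A549 (adjusted p = 0.0252) at dim signals of 22.83 to 86.63, and lost that call without either A549 EGF array and under quantile normalization. BMP4, named here after its values were seen, read 733.4 to 1138 in A549 and 4.09 to 5.62 in H1650, and it was not tested because its mean over the 10 arrays was below the filter.

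Of the BMP receptors and co-receptors, 8 of 11 were tested; 1 was called higher in A549, beside 13.8% of all genes (median 0.21), and 0 in H1650 (median -0.13), where 2 had an unadjusted limma p under 0.05. After centring the A549 counts were 1 higher and 2 lower. The called gene was ACVR2B, an activin and BMP type II receptor, at 0.93 ± 0.22 (limma adjusted p = 0.0173); the call was lost without either A549 nicotine array. None of the 3 BMP SMADs tested passed in either line by limma, and by unadjusted p under 0.05 the counts were 1 in A549 and 0 in H1650.

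Of the BMP inhibitors, 14 of 18 were tested; 3 were called higher in A549, beside 13.8% of all genes (median 0.03), and 1 lower in H1650, beside 6.66% (median 0.03). With array-median centring the A549 counts became 1 higher and 6 lower (median -0.26). NOG, a secreted BMP antagonist, rose in A549 from 63.02 to 130 with nicotine and from 62.92 to 197.1 with EGF, by 1.35 ± 0.20 (limma adjusted p = 0.00198), its control signals being below the filter, while H1650 read 1132 to 1796 and gave -0.13. SMURF1, a ubiquitin ligase for SMADs, gave 0.40 in A549 (adjusted p = 0.0211), and NBL1, another secreted antagonist, gave 0.49 (adjusted p = 0.0467); both calls were lost with centring, with quantile normalization and without any of the 4 A549 stimulated arrays. SMURF2 gave -0.50 ± 0.10 in H1650 (adjusted p = 0.0121), and that call was lost without any of the 4 H1650 stimulated arrays and with pairs ignored (adjusted p = 0.114).

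Of 6 other BMP targets, 5 were tested; 3 were called higher in A549, beside 13.8% of all genes (median 0.71), and 0 in H1650 (median -0.08), where 0 had an unadjusted limma p under 0.05. RUNX2, the osteoblast transcription factor, read 172.4 and 497.1 with nicotine and 158 and 576.6 with EGF in A549, a rise of 1.70 ± 0.20 (limma adjusted p = 0.000663), and gave 0.18 in H1650. MSX2 gave 0.71 (adjusted p = 0.046) and MSX1 gave 0.57 (adjusted p = 0.0363) in A549. These 2 calls were lost with centring, which left 1 called, with quantile normalization and without either A549 EGF array.

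Of the regulators of ID gene transcription, 5 of 7 were tested; 3 were called higher and 1 lower in A549, beside 13.8% and 11.4% of all genes (median 0.78), with the same counts after centring, and 0 in H1650 (median 0.10), where 0 had an unadjusted limma p under 0.05. ATF3, a stress-induced factor that represses ID1 transcription, rose in A549 from 259.7 to 608.2 with nicotine and from 237.7 to 836.7 with EGF, by 1.52 ± 0.16 (limma adjusted p = 0.000362). EGR1, an immediate early factor, read 282 and 925.4, then 461.1 and 1202, a change of 1.55 ± 0.21 (adjusted p = 0.00142; 0.138 with pairs ignored). MYC gave 0.78 ± 0.10 (adjusted p = 0.00107) and SP1 -0.46 ± 0.10 (adjusted p = 0.0133), the SP1 call being lost without either A549 nicotine array.

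Of the genes for ID protein turnover, all 8 were tested; 4 were called lower in A549, beside 11.4% of all genes (median -0.35), or 5 after centring, and 0 in H1650 (median 0.01), where 1 had an unadjusted limma p under 0.05. ANAPC11, a catalytic subunit of the anaphase-promoting complex, fell in A549 from 14160 to 8799 with nicotine and from 19550 to 9219 with EGF, by 0.89 ± 0.13 on the log2 scale (estimate -0.89, limma adjusted p = 0.00205). USP1, the enzyme that spares ID proteins, gave -0.60 (adjusted p = 0.00805), COPS5, the COP9 signalosome protease, -0.54 (adjusted p = 0.00719) and CDC27, another subunit of the complex, -0.45 (adjusted p = 0.0238). These 3 calls were lost without either A549 EGF array. The list thus held members known to degrade ID proteins and members known to spare them.

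Of the cell cycle inhibitors and other genes that ID proteins are known to restrain, 5 of 6 were tested; 1 was called higher in A549, beside 13.8% of all genes (median 0.15), and 0 in H1650 (median 0.09), where 1 had an unadjusted limma p under 0.05. With centring the A549 counts were 1 higher and 1 lower (median -0.14). The called gene was CDKN1A, which encodes p21: it rose in A549 from 3640 to 7053 with nicotine and from 4019 to 7672 with EGF, by 0.94 ± 0.11 (limma adjusted p = 0.000636), and gave -0.33 in H1650 (adjusted p = 0.0882).

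**Figure D4:**
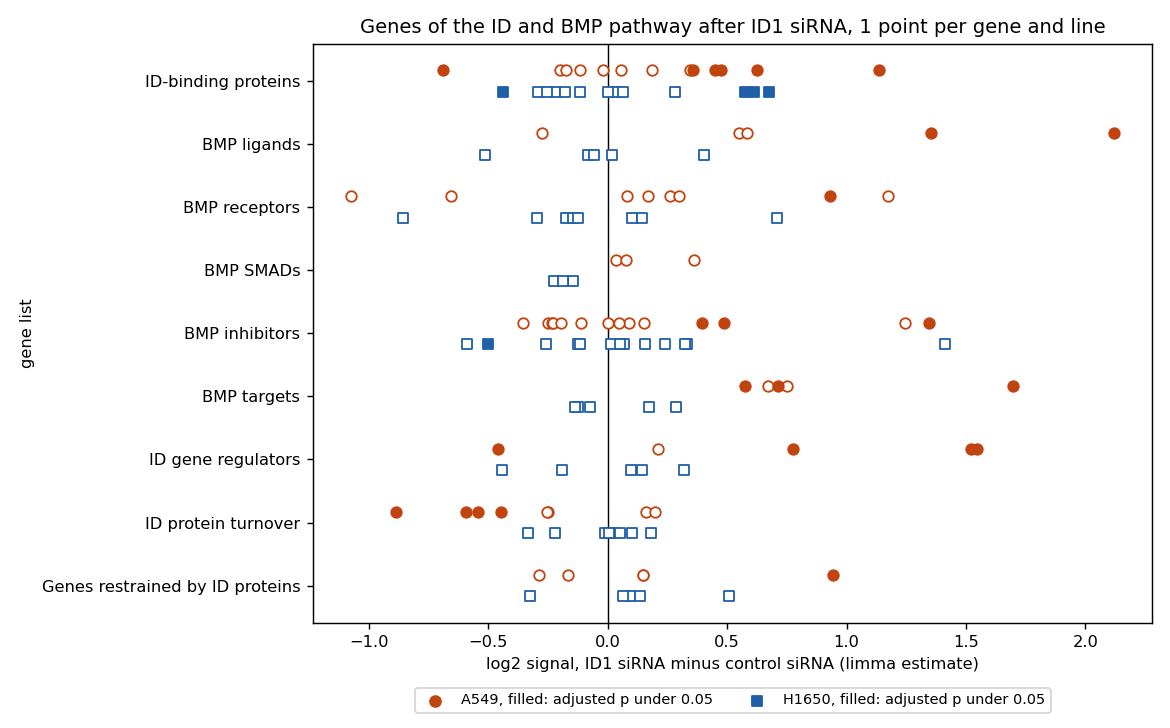
limma estimate (log2, ID1 siRNA minus control siRNA) of every tested gene of the 9 lists, 1 point per gene and line, A549 as circles and H1650 as squares; filled points have an adjusted p under 0.05. Filled points number 24 in A549 and 5 in H1650.

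The 4 members did not share 1 pattern over the arrays. With each line centred on its own mean, ID2 and ID4 ran opposite to each other, r = -0.895 over 10 arrays, as did ID1 and ID4, r = -0.722. ID1 and ID2 gave r = 0.502, ID3 and ID4 0.428, ID1 and ID3 0.184, and ID2 and ID3 -0.494. These are descriptions, since the arrays share lines, stimuli and the siRNA contrast, and no p is given.

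The genes most like each member by the same measure differed from member to member. ID1 ran closest with ZNF24 (r = 0.994), PTCD2 (0.993), TBCE (0.992), RIOX2 (0.99) and RASSF3 (0.988), whose ID1 siRNA estimates were negative in both lines. ID2 ran closest with PDHB (0.971), SRSF7 (0.966), DCXR (0.961), MLLT11 (0.958) and PGD (0.958), but within H1650 alone these r values were only 0.566 to 0.791. ID3 ran closest with BACE2 (0.982), TAPBPL (0.971), OPTN (0.965), RHPN1-AS1 (0.962) and NMI (0.961), all with positive estimates in A549 and negative ones in H1650. ID4 ran closest with MFHAS1 (0.989), FEZ1 (0.988), LRCH3 (0.981), DDIT4L (0.98) and STX3 (0.978). All values of r are over the same 10 arrays. The genes were chosen by these r values, over arrays that include the siRNA contrast. The signs of their ID1 siRNA estimates therefore largely follow from that choice.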

How the data were processed

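RNA of 2 lung carcinoma lines was hybridised to 10 Affymetrix U133 Plus 2.0 arrays, 1 per line and condition. The submitters' processing notes name GCOS 1.4 and MAS5 for the authors' intensity values; these deposited values are linear, although the labels speak of log2 values, and log2 was taken here. Array number limits the precision. Of 54675 probe sets, 41091 carried 1 gene symbol; 62 controls, 1801 with several symbols and 11721 without a gene were left out. For each gene the probe set of highest mean was kept, with a mean log2 signal of at least 6.06, the median of all probe sets.

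limma 3.58.1 (R 4.3.3, intensity trend, Benjamini-Hochberg) was used for 2 fits: line and condition over 10 arrays (4 residual degrees of freedom), and stimulus and ID1 siRNA within each line over the 8 stimulated arrays (2 residual degrees of freedom), in which line and stimulus pair the arrays. The moderation by limma added a median of 4.47 prior degrees of freedom in the first fit and 6.64 in the second. The spread of the second fit was pooled over both lines, so an effect has the same SE in each line. The labels give no replicate numbers. Fits were tested on simulated data. These had independent noise on each array with the spread of the fits themselves. They therefore cannot speak to shared cultures or to the reliance on the intensity trend. EGF against nicotine between lines was added after the data were seen.

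Named were all probe sets of the members, up to 4 called genes of each list per comparison, E proteins regardless of call, and the 5 genes of highest correlation with each member; cell type markers are fixed lists. Members and lists were chosen with earlier results of these data known. Alternatives were quantile normalization, array-median centring, 16 added to the signal, 2 other filters, 2 other probe set rules, no trend, no pairing, control arrays only, and each array left out.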

Additional observations from a re-analysis of the deposited data

Results flagged for a closer look

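The response to ID1 siRNA was called different between A549 and H1650 for all 4 members, by the interaction term of the limma fit (A549 minus H1650, log2). That term called 11.9% of all genes. The difference was 1.077 for ID1 (adjusted p = 0.00372), -1.169 for ID2 (adjusted p = 0.017), 1.115 for ID3 (adjusted p = 0.00209) and 1.249 for ID4 (adjusted p = 0.0479). The ID4 value passed in 2 of 15 alternatives, the ID2 value in 14 of 17, and those of ID1 and ID3 in 16 of 17 each. Without the intensity trend 0 of the 4 members passed (limma adjusted p from 0.0643 to 0.136).

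Among the 66 tested genes of the ID and BMP lists, 12 also differed, 18.2% beside 11.9% of all genes. These lists were chosen with earlier results of the data known, so the 2 shares are a description only. Larger values in A549 were found for ETS1 (1.25), ELK4 (0.647), BMP2 (2.102), NOG (1.471), RUNX2 (1.523), EGR1 (1.991), ATF3 (1.203), MYC (0.63) and CDKN1A (1.27). Smaller values were found for SP1 (-0.557), USP1 (-0.776) and ANAPC11 (-0.938). EGR1 had an adjusted p of 0.00445 by limma, and 0.241 with pairs ignored. ELK4 lost its call under 10 of 17 alternatives, SP1 under 12, MYC under 8 and USP1 under 6. Without the intensity trend 0 of the 12 genes kept this call. With the mean of all probe sets of a gene 7 of 11 kept it.

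Nicotine and EGF against no stimulus, on control siRNA arrays, gave opposite signs in the 2 lines for 3 values, and these differences were not tested. With nicotine ID1 gave 1.177 in A549 and -0.019 in H1650, a difference of 1.196, and ID3 gave -0.482 and 0.036, a difference of -0.518. With EGF ID4 gave -1.27 and 0.062, a difference of -1.332. Each uses the A549 unstimulated array, whose ID1 signal was 1645.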

How the results depend on the processing

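With ID1 siRNA in A549 all 4 members kept their sign and call under every alternative that gave a value: ID1 from -1.614 to -1.183, ID2 from -1.649 to -1.061, ID3 from 0.369 to 0.783 and ID4 from 1.608 to 1.991. ID4 fell below the filter, and so gave no value, with the stricter filter and with the mean of all its probe sets. Without the intensity trend the H1650 calls were lost for ID1 (-2.404, adjusted p = 0.0614) and ID3 (-0.458, adjusted p = 0.128), and the differences between lines for ID1 (1.077, adjusted p = 0.0793), ID2 (-1.169, adjusted p = 0.136), ID3 (1.115, adjusted p = 0.0643) and ID4 (1.249, adjusted p = 0.0667). With the pairing of arrays ignored (no replicate block), ID3 in H1650 (-0.458, adjusted p = 0.0957) and the ID4 difference (1.249, adjusted p = 0.0538) were lost; no other member call changed. The ID4 difference was also lost with array-median centring (1.011), quantile normalization (0.981) and no filter (1.249, adjusted p = 0.0799). With control arrays only, ID1 between lines was -0.926, and -0.582 without the A549 unstimulated array, an alternative added after the data were seen.

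Leaving out each array in turn gave -1.041 to -0.662 for ID4 between lines, -0.522 to -0.394 for ID3 and -0.474 to 0.102 for ID2 with ID1 siRNA in H1650, and -1.463 to -0.875 for ID2 and 1.096 to 1.401 for ID4 in the difference. Uncalled stimulus values also changed sign: nicotine against none ranged from -0.205 to 1.363 for ID1 and from -0.713 to 0.266 for ID3, EGF against none from -0.327 to 1.242 for ID1, and EGF against nicotine from -0.012 to 0.577 for ID2 in A549, from -0.495 to 0.081 for ID2 and from -0.14 to 0.165 for ID4 in H1650. With the mean of all probe sets 6 list values that had been called turned sign and were no longer called: ELK3 -0.152, ELK4 -0.246 and SMAD6 -0.289 between lines, SP1 0.08 and ACVR2B -0.039 in A549, and SP1 0.011 in the difference.

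Genes called with ID1 siRNA numbered 3161 in A549 (1733 higher, 1428 lower), 4914 with centring (948 higher, 3966 lower), 1394 without the trend, 1747 with probe set means, and 1455 and 1452 without the A549 EGF arrays. In H1650 the 1540 became 1 without the trend, 592 with probe set means, and 1003 and 981 without the nicotine arrays. The difference called 1490, against 2432 with centring, 199 without the trend, 636 with means and 957 without pairing. The causes were not tested. Limits are 1 array per condition, a trend-dependent spread from 2 residual degrees of freedom, and ID4 signals near the filter.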
